A study of Mus musculus with 16 samples.

Results

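The 9 genes described here encode 5 ligands of the fibroblast growth factor (FGF) family, Fgf3, Fgf4, Fgf8, Fgf15 and Fgf17, and the 4 receptor tyrosine kinases that bind FGFs, Fgfr1, Fgfr2, Fgfr3 and Fgfr4. They were taken by name, 9 of the 20972 genes that had a probe, and all 9 passed the filter on dim probes that left 15660 genes for testing. Arrays measured their RNA in the mouse embryonic stem cell line E14tg2a, grown on gelatin with serum and the cytokine LIF. The cells of all 8 groups carried c-Raf, the kinase at the top of the Erk cascade, as a constitutively active fusion protein under the control of tamoxifen. The DMSO group received the vehicle alone. The 0h group had 250 nM PD173074, a small-molecule inhibitor of FGF receptors, for 24 hours and no induction. The groups 30m, 1h, 2h, 4h, 8h and 24h first had the same 24 hours of inhibitor. They then had 250 nM 4-hydroxytamoxifen (4OHT) for 30 minutes or for 1, 2, 4, 8 or 24 hours, with PD173074 still present. Every group has 2 replicates, and 0h and DMSO are the study's controls. The labels do not say whether the fusion line is a single clone, nor whether replicates were separate cultures, so p-values measure only the spread between these arrays, which may be technical. Cells given 4OHT without the inhibitor, or without the fusion, were not analysed here. Time with the inhibitor lengthened along with time in 4OHT, and none of the 8 groups is uninduced at a later time than 0h. A change with 4OHT and a change with longer inhibitor treatment therefore cannot be told apart.

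FGF ligands bind a receptor together with heparan sulfate chains on the cell surface. The paired receptors phosphorylate adaptors such as Frs2, which hand the signal through Grb2, Sos and Ras to c-Raf, Mek and Erk, and Erk in turn switches on inhibitors of the same pathway. In embryonic stem cells Fgf4 is the ligand known for driving Erk activity, and cells without it, or with the receptors blocked, are held back from differentiation. In these samples the inhibitor acts on the receptor proteins while the fusion enters the pathway below them, so the comparison with 0h asks how the genes for the ligands and receptors stand when c-Raf is induced under a receptor block.

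Values are log2 of the array's processed signal minus the 75th percentile of that array, so a value of 0 lies at the 75th percentile and a difference of 1 is a 2-fold change. Each gene was read by its brightest probe, and levels were compared between samples only, never between genes. The authors left 2 records of which array is which sample, and for 8 of the 16 arrays the records differ. Each scanner file equalled 1 column of the deposited value table at 100% of spots, while no other column matched it at more than 4.99%. The samples here follow the headings of that table. Under this record each of the 2 slides carries 1 replicate of every group, and replicates correlated at 0.982 to 0.990 over genes. Under the other record, in which the scanner files are attached to samples, the pairs correlated at 0.948 to 0.989, and limma called 0 of the 9 genes in any of the 10 comparisons and in the test over all groups. All calls below therefore rest on the value table's record. Between 54.9% and 67.2% of the spots of an array were well above background, and 0 spots were saturated.

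The promoters of Fgfr4, Fgf4 and Fgfr2 are shown because these genes carry the changes in opposite directions described below. RefSeq (GRCm38.p6) promoter entries were matched for 5 of the 9 genes, and the 250 bases before the annotated start are given, 5′ to 3′ on the gene's strand. Capitals mark matches, on either strand, to a core of the ETS factor motif (CCGGAA) or to the GC box (GGGCGG). The AP-1 motif (TGANTCA) and the EGR motif (GCGNGGGCG) were searched too and had 0 matches in these 3 windows. The EGR letters can share bases with a GC box.
Fgfr4, chr13:55152568-55152817, plus strand: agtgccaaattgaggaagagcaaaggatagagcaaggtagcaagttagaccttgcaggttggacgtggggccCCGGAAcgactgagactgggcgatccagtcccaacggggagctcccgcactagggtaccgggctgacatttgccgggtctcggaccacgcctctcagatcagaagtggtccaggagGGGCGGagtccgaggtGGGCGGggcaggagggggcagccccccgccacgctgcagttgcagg
Fgf4, chr7:144861136-144861385, plus strand: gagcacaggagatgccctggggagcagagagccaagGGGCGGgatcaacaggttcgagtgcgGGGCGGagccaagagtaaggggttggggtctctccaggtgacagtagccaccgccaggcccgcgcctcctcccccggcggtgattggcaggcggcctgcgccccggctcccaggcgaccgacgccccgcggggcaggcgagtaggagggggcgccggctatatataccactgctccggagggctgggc
Fgfr2, chr7:130266809-130267058, minus strand: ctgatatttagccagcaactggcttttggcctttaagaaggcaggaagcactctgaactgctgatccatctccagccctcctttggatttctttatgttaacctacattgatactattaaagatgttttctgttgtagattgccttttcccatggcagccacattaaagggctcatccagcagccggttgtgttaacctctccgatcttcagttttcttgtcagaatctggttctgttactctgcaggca
The Fgfr4 window is 64% G or C and holds 1 ETS match, 178 bases before the start, and 2 GC boxes, 62 and 46 bases before it. The Fgf4 window is 71.2% G or C with 2 GC boxes, and the Fgfr2 window is 44% G or C with no match. Of 32851 RefSeq promoter windows of this length, 12% hold the ETS letters, 6.75% the AP-1 letters, 4.7% the EGR letters and 32.7% the GC box, and the matches are given only as a description of the sequence.

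After 24 hours of 4OHT 1 receptor gene was far higher than before and several ligand and receptor genes were lower. Fgfr4 was 57.1-fold higher than at 0h, while Fgf4, Fgf3, Fgf8, Fgfr1 and Fgfr2 were lower. Fgf15, Fgf17 and Fgfr3 did not pass the test. Thus 6 of 9 genes were called at an adjusted p under 0.05 (limma, Benjamini-Hochberg over all tested genes), where 23.7% of all tested genes were. In 1 direction, 1 gene rose against 10.7% of tested genes and 5 fell against 13%. The median difference of the 9 genes was -1.03, against -0.01 over all genes tested. With the replicate number as a block, which is also the slide, 7 of 9 were called against 39.5% of tested genes, the addition being Fgf17.

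At 8 hours of 4OHT 3 of the 9 genes differed from 0h, against 6.74% of tested genes. Fgfr4 had risen (3.13% of tested genes rose) and Fgf4 and Fgf3 had fallen (3.61% fell). With the block Fgfr1 and Fgfr2 were lower as well, making 5 of 9 against 21% of tested genes. From 8h to 24h, 2 of 9 were called against 8.81% of tested genes, Fgfr4 upwards and Fgf8 downwards, and 4 with the block against 22.9%, Fgf17 and Fgfr2 being lower too. In the moderated F test over all 8 groups, 4 of 9 were called against 22.9% of tested genes: Fgfr4, Fgf4, Fgf3 and Fgf8 (adjusted p of 0.00010, 0.0073, 0.0083 and 0.020). The block raised this to 7 of 9, all but Fgf15 and Fgfr3, against 49.2% of tested genes.

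Fgf4, the main FGF that embryonic stem cells secrete, was well above background on all 16 arrays and fell during the time course. Replicates 1 and 2 of Fgf4 stood at 6.50 and 6.14 in DMSO, 6.68 and 6.74 at 0h, 6.80 and 6.40 at 30m and 7.01 and 6.73 at 1h. They stood at 6.59 and 6.43 at 2h, 5.40 and 5.98 at 4h, 4.81 and 5.48 at 8h and 4.08 and 5.16 at 24h. All arrays up to 2h lay above all arrays from 4h on, and within the later groups 4h overlapped 8h and 8h overlapped 24h. Against 0h the Fgf4 difference was -1.02 ± 0.35 (SE) at 4h, which did not pass the test (limma adjusted p = 0.15). It fell by 1.57 ± 0.35 at 8h (adjusted p = 0.030) and by 2.09 ± 0.35 at 24h (adjusted p = 0.0023), which is 4.25-fold. The slides gave -2.59 and -1.58 for the 24h difference, which kept its call with any array of these groups left out (adjusted p 0.00081 to 0.020). The 8h call was lost without replicate 1 of 0h, replicate 2 of 0h or replicate 1 of 8h (adjusted p of 0.14, 0.12 and 0.27) and with median centring of the arrays (0.055). Against DMSO, Fgf4 at 24h was lower by a difference of -1.70 ± 0.35 (limma adjusted p = 0.014), lost without replicate 1 of DMSO (0.11) or of 24h (0.12), and the 8h difference of -1.18 ± 0.35 passed with the block alone (adjusted p = 0.045). With arrays as attached to the scanner files the 24h minus 0h difference of Fgf4 was -0.09 (adjusted p = 0.98).

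Fgf3, a ligand known from inner ear and tail development, was close to the detection limit and fell below it. RefSeq lists Fgf3 beside Fgf4 on chromosome 7, with Fgf15 nearby. Replicates 1 and 2 of Fgf3 read -4.70 and -4.57 in DMSO, -3.79 and -4.18 at 0h, -3.51 and -4.35 at 30m and -3.98 and -4.12 at 1h. From 2h on no array was well above background for Fgf3: -4.84 and -5.40 at 2h, -6.10 and -5.49 at 4h, -6.89 and -5.70 at 8h and -6.41 and -5.65 at 24h. Of the earlier arrays, replicate 1 of DMSO was not well above background either. All arrays of 0h, 30m and 1h were higher than all arrays of the later groups. Because the later groups give only a limit, the fall is given as a lower bound: on each array of the dim group the probe was set to the faintest signal still well above background, or left at its own value if brighter. The p-values beside this and later bounds do not test the bound. They come from the probe's own values, including those below background. Fgf3 was at least 2.07-fold lower at 8h than at 0h (limma adjusted p = 0.015) and at least 1.52-fold lower at 24h (adjusted p = 0.0069). At 4h it was at least 1.88-fold lower, which passed with the block alone (adjusted p = 0.026, against 0.052). Without replicate 1 of 0h or of 24h the 24h call was lost (adjusted p of 0.053 and 0.069). The 8h call was lost without either replicate of 0h (0.11 and 0.051) or replicate 1 of 8h (0.14), and with normexp background correction, where the difference was -0.26 (0.30). Against DMSO Fgf3 at 8h differed by -1.66 ± 0.43 (limma adjusted p = 0.049), and no bound is given because replicate 1 of DMSO was not well above background. The call was lost without replicate 1 of DMSO, replicate 2 of DMSO or replicate 1 of 8h (differences of -1.7, -1.6 and -1.1). It was also lost with normexp (-0.31, 0.22), median centring (0.11), quantile normalization (0.099) or no filter on dim probes (0.073). With normexp the 24h difference from 0h was -0.41 (adjusted p = 0.043). This and the 8h difference of -0.26 were smaller than the bounds given above, which therefore hold for the main processing only. With arrays as attached to the scanner files Fgf3 did not pass the filter on dim probes.

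Fgf8, a ligand needed for gastrulation, had its highest arrays at 4h and its lowest at 24h. The arrays of Fgf8 read -2.94 and -3.10 in DMSO, -2.85 and -2.70 at 0h, -2.66 and -2.92 at 30m and -2.66 and -3.23 at 1h. They read -2.53 and -2.57 at 2h, -1.93 and -2.31 at 4h, -3.05 and -2.50 at 8h and -3.92 and -3.56 at 24h. Both 4h arrays lay above, and both 24h arrays below, all others. The 4h minus 0h difference of 0.65 ± 0.24 did not pass the test (limma adjusted p = 0.18, and 0.096 with the block). At 24h Fgf8 fell by 0.97 ± 0.24 against 0h (adjusted p = 0.016) and by 0.96 ± 0.24 against 8h (adjusted p = 0.035). The first call was lost without either replicate of 0h (0.055 and 0.088) or replicate 1 of 24h (0.13), the second without replicate 1 of 24h (0.24) or replicate 2 of 8h (0.19). The fall rested on the probe. A second Fgf8 probe, also well above background on all 16 arrays, gave -0.49 ± 0.34 for 24h minus 0h (adjusted p = 0.36). Another, above it on 4 arrays, gave 0.37 ± 0.60. For 24h minus 8h the second probe gave -0.37 ± 0.34 (limma adjusted p = 0.59). The dim probe gave 1.92 ± 0.60, the opposite direction, called with the block only (0.025, against 0.079). With normexp background correction the brightest probe gave -0.39 (0.10) for 24h minus 0h. With arrays as attached to the scanner files the Fgf8 difference from 0h was -1.01 (adjusted p = 0.35).

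Fgf15, the mouse counterpart of the human hormone FGF19, had its lowest mean at 24h, where its arrays overlapped those of 8h. Fgf15 stood at 0.63 and -0.10 in DMSO, 0.02 and -1.08 at 0h, 0.12 and -1.16 at 30m and 0.12 and -0.70 at 1h. Fgf15 then stood at 0.08 and -0.87 at 2h, -1.08 and -1.18 at 4h, -1.52 and -0.91 at 8h and -2.03 and -1.48 at 24h. Replicate 1 was the higher array up to 4h and the lower one at 8h and 24h. The 24h arrays lay below those of DMSO and 0h, by a difference of -2.03 ± 0.54 from DMSO (limma adjusted p = 0.037) and of -1.23 ± 0.54 from 0h (adjusted p = 0.13, not called). The call against DMSO was lost whichever of the 4 arrays was left out: replicate 1 and 2 of DMSO (0.23 and 0.064), replicate 1 and 2 of 24h (0.25 and 0.056). With arrays as attached the Fgf15 difference from DMSO was -1.45 (adjusted p = 0.43).

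Fgf17, a close relative of Fgf8, was lower at 24h on both slides and passed the test with the block only. Fgf17 read -1.77 and -2.21 in DMSO, -1.33 and -2.07 at 0h, -1.38 and -1.92 at 30m and -1.61 and -1.94 at 1h. It read -1.31 and -2.14 at 2h, -0.80 and -2.02 at 4h, -1.41 and -1.94 at 8h and -2.37 and -3.09 at 24h. Replicate 1 was the higher array in every group, and only the 24h arrays lay below all others. The 24h difference of Fgf17 was -1.03 ± 0.46 from 0h (limma adjusted p = 0.14), with -1.04 on slide 1 and -1.02 on slide 2. With the slide as a block it was called (adjusted p = 0.0020), as were the differences from 8h (0.0042) and from DMSO (0.019).

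**Figure D1:**
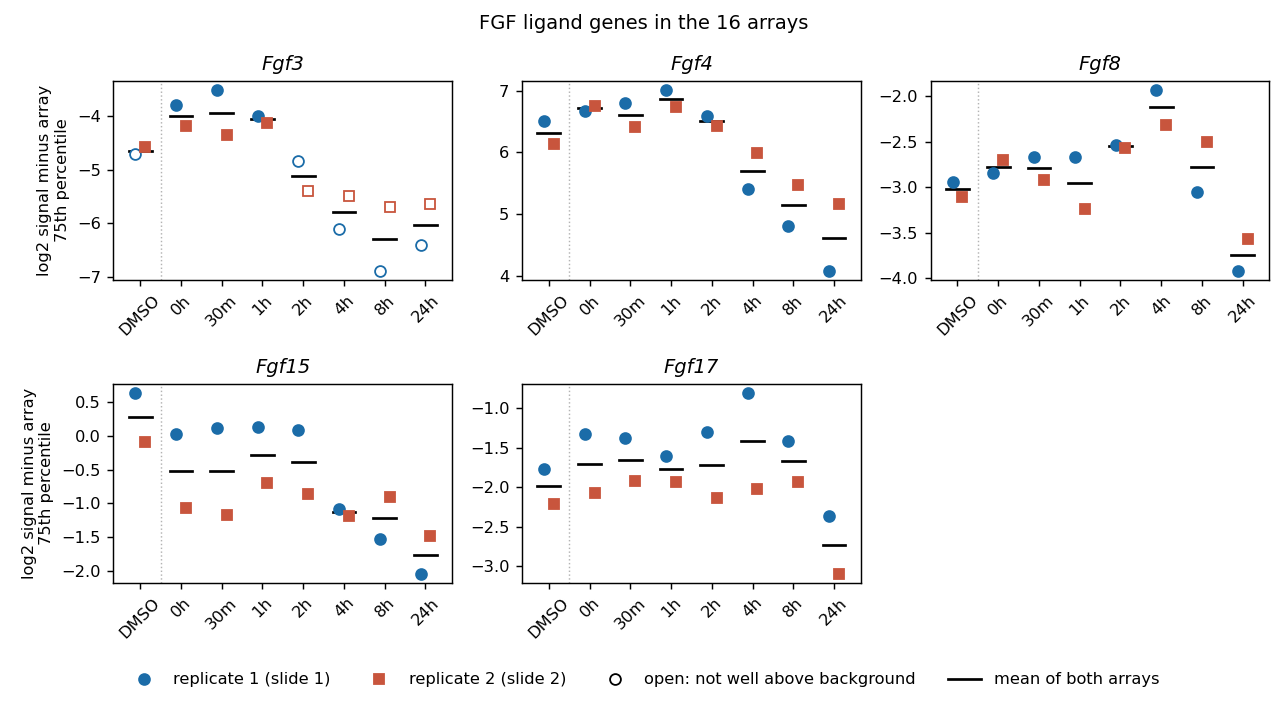
Log2 signal minus the array's 75th percentile of the 5 ligand genes (y axis) in the 8 groups (x axis), with circles for replicate 1, squares for replicate 2, open symbols for arrays not well above background and bars for the mean of both. Fgf4 falls from 6.68 and 6.74 at 0h to 4.08 and 5.16 at 24h, and every Fgf3 symbol from 2h on is open.

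Fgfr4 had the largest change of the 9 genes. It is known as the liver receptor through which FGF15 restrains bile acid synthesis. The arrays of Fgfr4 stood at -0.69 and -0.79 in DMSO, -1.45 and -1.85 at 0h, -1.37 and -1.88 at 30m and -1.29 and -1.83 at 1h. They stood at -1.35 and -1.99 at 2h, -1.38 and -1.82 at 4h, 0.84 and 0.14 at 8h and 4.62 and 3.75 at 24h. The groups from 0h to 4h overlapped one another, the DMSO arrays lay above them, the 8h arrays above those and the 24h arrays highest, with no overlap at any of these steps. At 4h Fgfr4 differed from 0h by 0.05 ± 0.37 (95% interval -0.77 to 0.87). It rose by 2.14 ± 0.37 from 0h to 8h (limma adjusted p = 0.011), by 3.70 ± 0.37 from 8h to 24h (adjusted p = 0.00082) and by 5.84 ± 0.37 from 0h to 24h (adjusted p = 2.45e-05). The slides gave 6.07 and 5.60 for the last difference. Every 24h call of Fgfr4 held with any array of the groups compared left out (adjusted p between 3.29e-05 and 0.0073 over the 3 comparisons), while the 8h call was lost without replicate 1 of 0h, replicate 2 of 0h or replicate 1 of 8h (0.052, 0.071 and 0.12). A fit of only the 2 groups compared kept the 24h call against 0h and lost those against 8h and DMSO (adjusted p of 0.17 and 0.069). With arrays as attached to the scanner files the 24h pair would be -1.83 and 3.75 and the 1h pair -1.29 and 4.62, and the 24h minus 0h difference 2.37 (adjusted p = 0.64).

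The inhibitor by itself left Fgfr4 lower and Fgfr2 higher in the fit with the block only. Fgfr4 differed between 0h and DMSO by -0.91 ± 0.37 (limma adjusted p = 0.23, with the block 0.0061), with -0.76 and -1.06 on the slides. At 24h it was 30.4-fold above DMSO (adjusted p = 0.00018). At 8h the Fgfr4 difference from DMSO was 1.23 ± 0.37, called with the block (0.0012, against 0.079) and with normexp background correction (0.039).

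Fgfr1, the receptor most linked to FGF4 signalling in embryonic stem cells, and Fgfr2, which acts beside it in the early embryo, both fell by 24h. Fgfr1 stood at 3.44 and 3.36 in DMSO, 3.81 and 4.30 at 0h, 3.92 and 4.28 at 30m and 4.10 and 4.26 at 1h. Fgfr1 then stood at 3.99 and 4.26 at 2h, 3.59 and 4.04 at 4h, 2.72 and 3.60 at 8h and 3.28 and 3.07 at 24h. The arrays of 0h to 4h lay above those of DMSO and 24h, and 1 of the 8h arrays was the lowest of all. Against 0h, Fgfr1 fell by 0.88 ± 0.29 at 24h (limma adjusted p = 0.049, within slides -0.53 and -1.23), a call that any single array of the 4 decided: without them the adjusted p was 0.058, 0.27, 0.12 and 0.18 (replicates 1 and 2 of 0h, then 1 and 2 of 24h). At 8h the Fgfr1 difference was -0.90 ± 0.29, past the threshold with the block (adjusted p = 0.021, against 0.091) and with normexp background correction (0.040). Against DMSO, Fgfr1 at 24h differed by -0.23 ± 0.29 (95% interval -0.86 to 0.41).

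Fgfr2 stood at -1.64 and -1.35 in DMSO, -1.21 and -0.79 at 0h, -1.34 and -0.86 at 30m and -1.13 and -0.84 at 1h. It stood at -1.28 and -0.90 at 2h, -1.49 and -1.06 at 4h, -1.77 and -1.50 at 8h and -2.16 and -1.93 at 24h. Replicate 2 was the higher array in every group, and both 24h arrays lay below all others. Fgfr2 fell by 1.04 ± 0.24 from 0h to 24h (limma adjusted p = 0.012, within slides -0.95 and -1.13), a call lost without replicate 1 of 24h (0.089) or replicate 2 of 0h (0.092). Only with the block was it higher at 0h than in DMSO (0.49 ± 0.24, adjusted p = 0.0073, against 0.33), lower at 8h than at 0h (-0.63 ± 0.24, 0.0020, against 0.16) and lower at 24h than in DMSO (-0.55 ± 0.24, 0.0029, against 0.19). With arrays as attached to the scanner files the 24h minus 0h difference was -0.03 for Fgfr1 and -0.03 for Fgfr2 (adjusted p of 0.99 and 0.98).

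Fgfr3, known as a brake on bone growth, did not pass the limma test in any of the 10 comparisons, with or without the block. Fgfr3 read -2.48 and -1.11 in DMSO, -2.50 and -1.51 at 0h, -2.24 and -1.58 at 30m and -2.35 and -1.35 at 1h. It read -2.21 and -1.25 at 2h, -1.48 and -1.13 at 4h, -1.56 and -1.15 at 8h and -1.91 and -1.10 at 24h. Replicate 2 was the higher in every group, and all groups but 4h overlapped 0h. The 24h minus 0h difference of Fgfr3 was 0.50 ± 0.56 (limma adjusted p = 0.59), and its 95% interval of -0.74 to 1.74 does not separate a fall from a 2-fold rise.

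**Figure D2:**
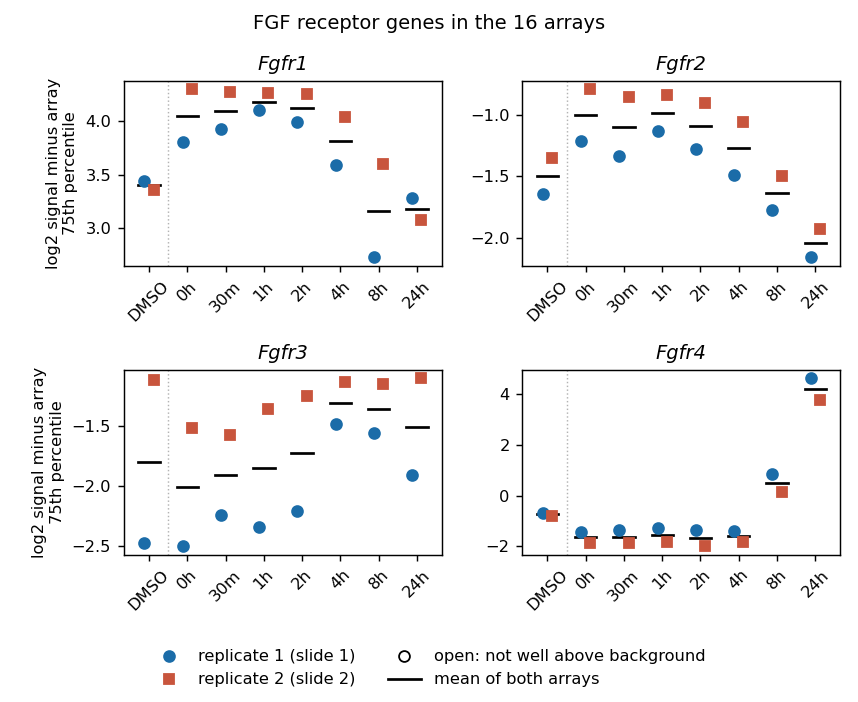
Log2 signal minus the array's 75th percentile of the 4 receptor genes (y axis) in the 8 groups (x axis), drawn as for the ligands. Fgfr4 stays between -1.99 and -1.29 from 0h to 4h and reaches 4.62 and 3.75 at 24h, while Fgfr1 and Fgfr2 are lower at 24h than at 0h.

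The earlier comparisons held few calls. Between 0h and DMSO limma called 0 of 9 genes (2 at an unadjusted p under 0.05, Fgfr1 and Fgfr4), where 3.5% of tested genes were called. The block called 2 of 9, against 15% of tested genes. The largest difference there besides Fgfr4 was that of Fgf15, at -0.80 ± 0.54, and Fgfr1 stood at 0.65 ± 0.29 (adjusted p = 0.27). At 30m and at 1h limma called 0 of 9 genes, 0 at an unadjusted p under 0.05 and 0 with the block. Of all tested genes 0% were called at either time without the block, and with it 0% at 30m and 0.0192% at 1h. At 2h it called 0 of 9 (1 at an unadjusted p under 0.05, Fgf3), where 0.115% of tested genes were called. At 4h it called 0 of 9 (3 unadjusted: Fgf3, Fgf4 and Fgf8) against 3.18% of tested genes, and with the block 1, Fgf3, against 16%.

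Against the vehicle, 1 of 9 genes was called at 8h, Fgf3, where 6.44% of tested genes were, and 3 of 9 with the block (18.1% of tested genes): Fgf3 and Fgf4 lower and Fgfr4 higher. At 24h 3 of 9 were called against 11.3% of tested genes, namely Fgfr4 higher and Fgf4 and Fgf15 lower. The block called 6 of 9 at 24h against 26% of tested genes, adding Fgf3, Fgf17 and Fgfr2, all lower. The comparisons with 0h share the 0h arrays, and those with DMSO share the DMSO arrays.

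**Figure D3:**
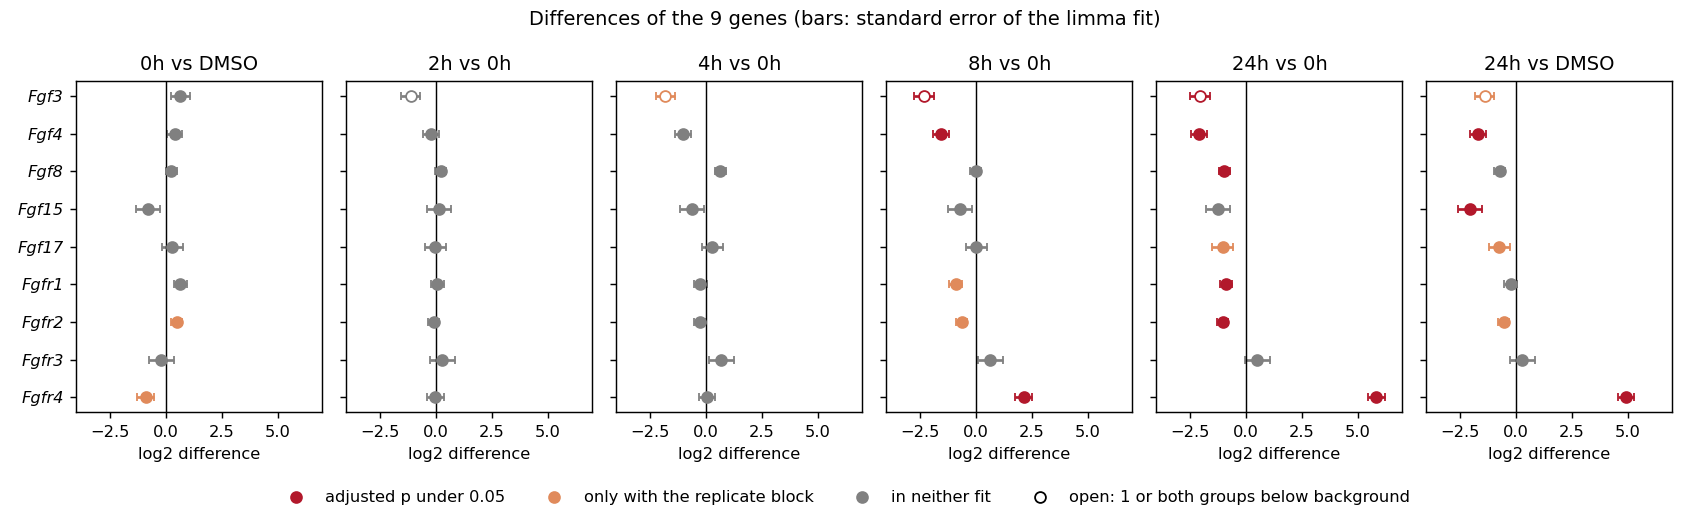
Log2 difference (x axis) of each of the 9 genes (y axis) in 6 comparisons, with bars for the standard error of the limma fit, dark red for an adjusted p under 0.05, orange for a call with the replicate block only and open symbols where a group lay below background. Fgfr4 lies at 2.14 at 8h and 5.84 at 24h against 0h, opposite to Fgf3 and Fgf4.

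The choice of probe mattered for some genes. Of the 5 genes with several probes, Fgfr4 had a second probe on all 16 arrays that rose by 3.88 ± 0.80 from 0h to 24h (limma adjusted p = 0.0065) and differed by 1.12 ± 0.80 at 8h (0.48). A second Fgfr2 probe, the mean of 10 spots, was well above background on 12 arrays and on neither at 24h. It was at least 3.14-fold lower at 24h than at 0h (adjusted p = 0.0046), with arrays at -3.32 and -2.56 at 0h and -5.66 and -5.91 at 24h. The other 2 Fgfr1 probes gave -0.81 ± 0.27 (adjusted p = 0.054) and -0.33 ± 0.60 (0.76), and the other Fgfr3 probe -0.10 ± 0.32 (0.89). Which transcripts the probes cover was not examined.

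**Figure D4:**
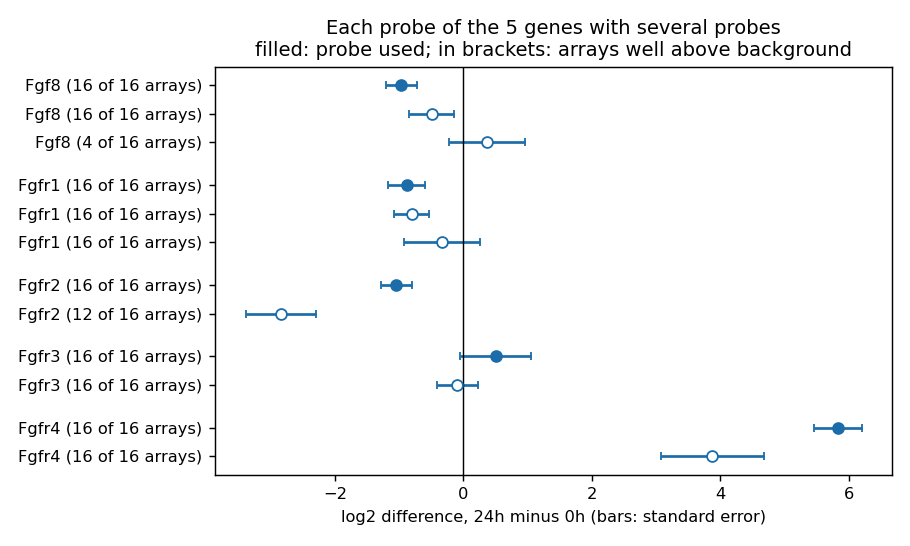
Log2 difference of 24h minus 0h (x axis, bars for the standard error) for each probe of the 5 genes with several probes (y axis), filled for the probe used, with the number of arrays on which the probe was well above background. Both Fgfr4 probes rose (5.84 and 3.88), while the Fgf8 probes lie at -0.97, -0.49 and 0.37. The dimmer Fgfr2 probe was below background at 24h, so its position gives only a limit.

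For the 4 genes called in the F test, the genes with the most similar course over the 16 arrays were listed by Pearson r among those with an SD of at least 0.5, as a description with arrays of a group not independent of each other. Closest to Fgfr4 were Bin1, Pde2a and Dync1i1 (r of 0.990, 0.988 and 0.984). Closest to Fgf4 were Cpt1a, Tgtp2 and Hlf (0.972, 0.972 and 0.969), to Fgf3 Nod1, Hes3 and Chst10 (0.946, 0.941 and 0.940) and to Fgf8 Pdgfa, Pax6 and Tmem201 (0.909, 0.898 and 0.884).

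Of 17 other FGF ligands 11 were tested, and at 24h against 0h 2 were higher and 1 lower (median 0.10, over all genes -0.01). The block gave 3 higher and 2 lower. For this and the lists below, 10.7% of all tested genes were higher and 13% lower in this comparison, and 39.5% were called with the block, so the ligand count is near the share over all genes. Fgf18, a ligand of the same subfamily as Fgf8 and Fgf17, fell by 1.48 ± 0.26 (limma adjusted p = 0.0027), with arrays at 0.96 and 0.66 at 0h and -0.89 and -0.46 at 24h. Fgf21, a hormone-like FGF, was above background at 24h only and at least 2.58-fold higher there than at 0h (adjusted p = 0.00047). Fgf21 and Fgf9, the 2 genes counted as higher without the block, passed the filter on dim probes only through the 24h group. Their calls and that count are therefore not independent of the filter. Fgf9 was above background at 24h only as well, at least 2.51-fold higher (adjusted p = 0.041), a call lost without replicate 1 of 24h (0.21), replicate 2 of 0h (0.25) or replicate 2 of 24h (0.071). Fgf5, a marker of the epiblast after implantation, differed from 0h by 0.23 ± 0.66 at 24h and from DMSO at 0h by -1.19 ± 0.66, past the threshold with the block and not without it (adjusted p of 0.040 and 0.40). In between, Fgf5 stood above 0h by 1.22 ± 0.66 at 4h and 2.07 ± 0.66 at 8h. Both differences were called with the block (limma adjusted p of 0.036 and 0.0036) and not without it (0.37 and 0.093).

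Of 17 tested co-receptors and binding proteins, which hold or present FGFs, 2 were higher and 1 lower at 24h than at 0h (median 0.00), and 2 were higher and 2 lower with the block, a smaller share than over all genes. Cdh2 (N-cadherin), a cadherin that binds FGF receptors, rose by 2.63 ± 0.31 (limma adjusted p = 0.00042), from -0.22 and -0.47 to 2.72 and 1.84. Gpc3, a heparan sulfate proteoglycan, fell by 1.94 ± 0.38 (adjusted p = 0.0047), from 1.73 and 2.13 to -0.54 and 0.51. Fgfbp3, a carrier that frees FGFs from the matrix, rose by 1.49 ± 0.34 (adjusted p = 0.0096), a call lost without replicate 1 of 24h (0.071) or replicate 2 of 0h (0.052). Fgfbp1, another carrier, was higher at 4h by 2.16 ± 0.42 (0.026) and at 8h by 1.86 ± 0.42 (0.029), with 3 arrays deciding each call. The 4h call was lost without replicate 1 or 2 of 0h (0.075 and 0.14) or replicate 1 of 4h (0.24), and the 8h call without replicate 1 or 2 of 0h (0.063 and 0.16) or replicate 1 of 8h (0.27). The 24h arrays of Fgfbp1 lay back near those of 0h. Gpc4, a relative of Gpc3, stood at -2.09 and -1.28 at 8h, and at 24h at -6.65, which was below background, and -3.26. The 24h minus 8h difference of -3.28 (adjusted p = 0.029) was -1.58 (0.033) without the first of these 24h arrays and -4.97 without the other, and the call was lost without replicate 1 or 2 of 8h (0.060 and 0.14). Fgfrl1, an FGF receptor without a kinase domain, differed by -0.04 ± 0.29 at 24h.

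Enzymes of heparan sulfate synthesis included genes that moved in opposite directions within 1 reaction step. Of 14 tested, 3 were higher and 3 lower at 24h than at 0h (median 0.10), and with the block 3 were higher and 5 lower. The sulfotransferases Hs6st1 and Hs6st2 both add the sulfate at the same position of the sugar chain. Hs6st2 stood at 0.11 and 0.48 in DMSO, at -2.50 and -2.61 at 0h, at -3.07 and -3.36 at 8h and at -0.21 and -0.01 at 24h. It was lower at 0h than in DMSO by a difference of -2.85 ± 0.21 (limma adjusted p = 0.00036) and rose by 2.45 ± 0.21 from 0h to 24h (adjusted p = 8.8e-05). Hs6st1 fell by 2.19 ± 0.46 from 0h to 24h (adjusted p = 0.0065), from 1.40 and 1.77 to -0.87 and -0.35, a call lost without replicate 1 of 24h (0.061). Ext1, which extends the chain, rose by 1.56 ± 0.43 (0.025), a call lost without replicate 1 of 0h (0.050), replicate 2 of 0h (0.15) or replicate 1 of 24h (0.17). The other 3 calls were smaller: Extl2 at 0.51 ± 0.13, Sulf2, an enzyme that removes sulfate, at -0.74 ± 0.20 and Ndst1, which adds it, at -0.62 ± 0.18. Each of these 3 was lost in at least 3 of the 4 fits that left out an array.

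Among adaptors and proximal transducers, values are given for 3 genes. Sos2, an exchange factor for Ras, rose by 0.92 ± 0.24 from 0h to 24h (limma adjusted p = 0.020), a call lost without replicate 1 or 2 of 0h (0.10 and 0.064) or replicate 1 of 24h, where the difference was 0.48 (0.12). The adaptors Frs2 and Grb2 differed at 24h by -0.17 ± 0.11 and -0.04 ± 0.11, both not called.

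The RNA of a list of feedback inhibitors and ETS targets of Erk was read as well, while Erk activity itself was not measured. Of 14 tested, 3 were lower in 0h than in DMSO (median -1.47), where 3.5% of all tested genes were called, and with the block 9 were lower and 1 higher, where 15% were. At 24h against 0h 10 were higher and 1 lower, with or without the block (median 2.60, over all genes -0.01). The lower gene was Lgals3, at 6.25 and 5.67 at 0h and 4.60 and 4.88 at 24h. In DMSO Lgals3 stood at 5.30 and 5.16. Spry4, an inhibitor of receptor signalling, rose by 4.94 ± 0.38 at 24h (limma adjusted p = 5.2e-05) and was already higher at 2h, by 4.39 ± 0.38 (adjusted p = 0.0044), where 0 of the 9 ligand and receptor genes were called. At 24h Spry2 rose by 2.55 ± 0.42 and the Erk phosphatase genes Dusp4, Dusp5 and Dusp6 by 5.67 ± 0.71, 3.25 ± 0.52 and 3.97 ± 0.59. The ETS factor gene Etv4 rose by 4.97 ± 0.74 at 24h, while Etv5 differed by 0.10 ± 0.31. The 24h calls of Spry4, Spry2, Dusp4, Dusp5, Dusp6 and Etv4 held with any array of 0h or 24h left out.

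**Figure D5:**
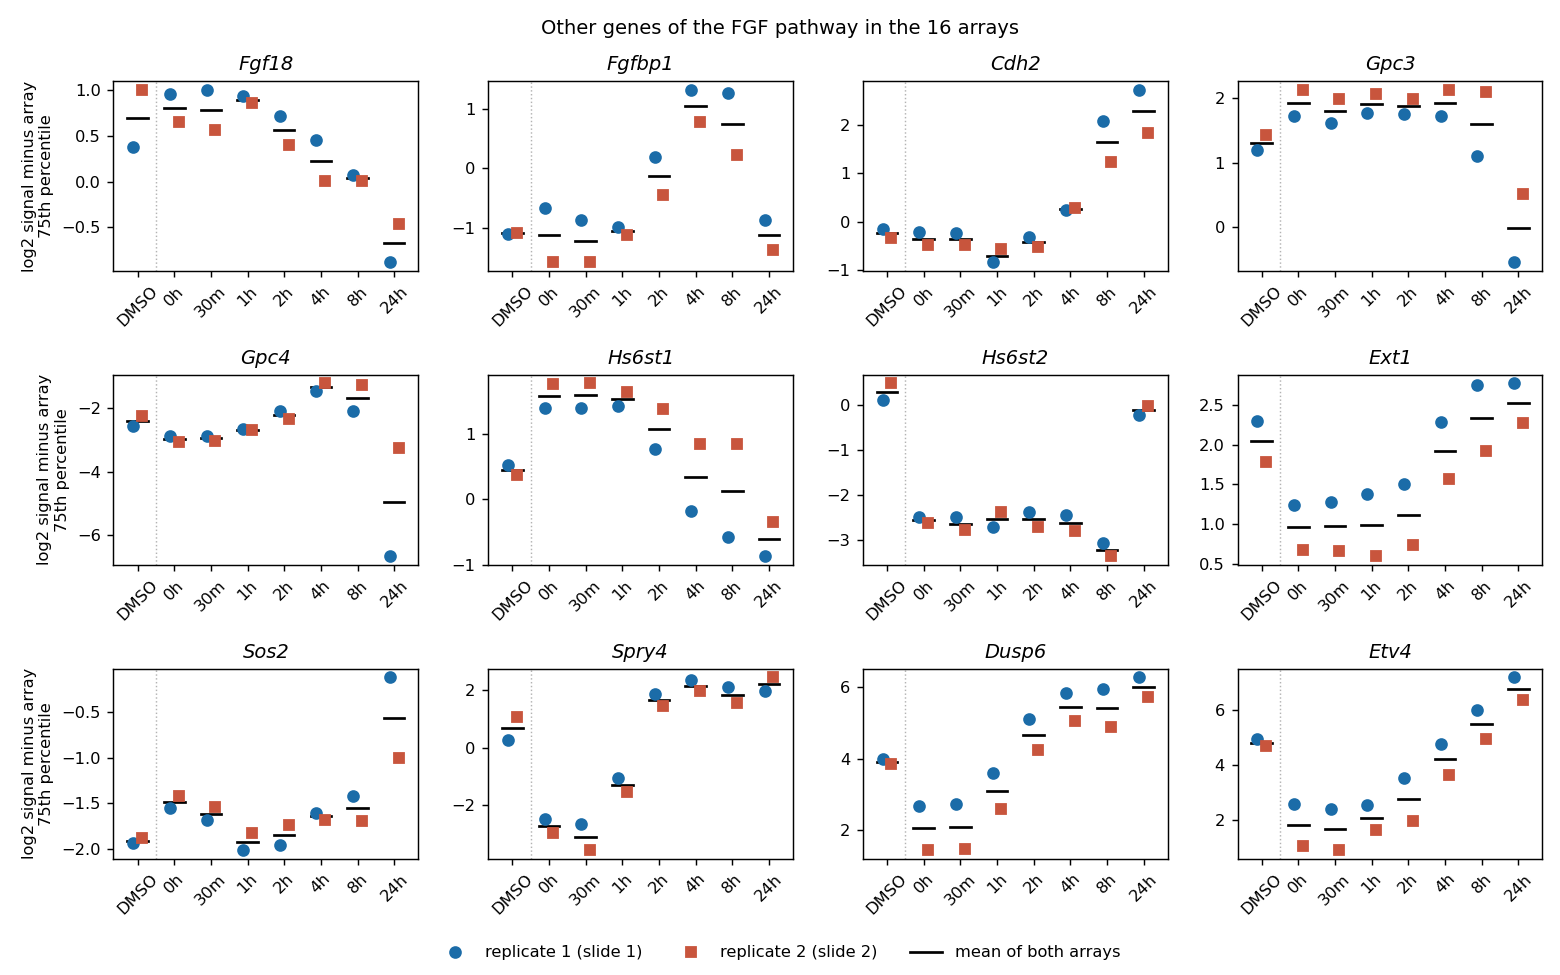
Log2 signal minus the array's 75th percentile (y axis) of 12 other genes of the pathway in the 8 groups (x axis), with circles for replicate 1, squares for replicate 2 and bars for the mean. Spry4 is above its 0h arrays from 1h on, and Hs6st2 is low from 0h to 8h and back at -0.21 and -0.01 at 24h.

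All 10 pluripotent stem cell markers were well above background on both arrays of every group, with a summed level (in multiples of the array's 75th percentile) of 812 to 845 at 0h and 640 to 689 at 24h. Dppa5a weighed most in this sum, at 8.21 and 8.42 at 0h and 8.34 and 8.31 at 24h on the log2 scale. The sum hides larger changes: Nanog went from 4.5 and 4.6 to -1.75 and 1.58, and Klf4 from 5.06 and 4.38 to 0.24 and 2.26. Utf1 went the other way, from 5.63 and 4.72 to 7.09 and 6.83. Markers of other cell types moved with the later groups. The lists are not fully separate, since Eomes is in both the trophectoderm list and the mesoderm and primitive streak list. Eomes stood at -2.30 and -2.36 at 0h and at -0.72 and -1.56 at 8h, and it enters the sums and counts of both. The trophectoderm list (8 genes, 2 below background on both arrays at 0h and 1 at 24h) summed to 29.5 to 51.0 at 0h, 58.5 to 69.3 at 8h and 77.1 to 123 at 24h. Krt18 moved this sum most, from 3.29 and 3.79 at 0h to 6.68 and 5.89 at 24h on the log2 scale, while Tfap2c stood at 4.02 and 5.02 and then at 3.29 and 3.06. The fibroblast list (7 genes, 2 below background on both arrays in every group) summed to 3.04 to 3.11 at 0h, 13.1 to 19.6 at 8h and 13.7 to 14.4 at 24h. At 24h its rise was that of Thy1, at 1.45 and 1.41 at 0h and 3.80 and 3.74 at 24h, while Col1a1 and Dcn had lower means at 24h and were not called without the block (adjusted p of 0.10 and 0.63; with it 0.045 and 0.10). The mesoderm and primitive streak list (8 genes, 3 below background on both arrays at 0h and 4 at 24h) summed to 0.819 to 1.07 at 0h, 2.06 to 4.00 at 4h, 1.44 to 2.35 at 8h and 0.739 to 0.893 at 24h. Evx1 moved its 4h sum most, from -2.55 and -3.08 at 0h to 1.68 and 0.35 at 4h, while Gsc went from -2.68 and -1.29 to -4.38 and -2.50. The primitive endoderm list has 9 genes, 3 below background on both arrays at 0h and 2 at 24h. It summed to 0.505 to 0.538 at 0h and 1.35 to 3.38 at 24h. Gata6 moved this sum most, from -4.06 and -4.12 to 1.495 and -0.15 on the log2 scale, while Gata4 went from -2.28 and -2.34 to -2.65 and -2.47. Sox7, Dab2 and Foxa2 also had lower means at 24h, each with at least 1 array there not well above background. The neural list (6 genes) summed to 10.8 to 14.6 at 0h and 4.09 to 4.51 at 24h. Tubb3 moved it most, from 2.95 and 3.48 to -0.12 and 0.94. Sox1 stood at -2.15 and -1.33 and then at -2.02 and -1.3, and Nes was higher on replicate 1 only. At 8h against 0h 4 of 7 tested trophectoderm markers were higher, 1 of 5 for fibroblasts, and of 7 mesoderm markers 3 were higher and 1 lower. Over all tested genes 3.13% were higher and 3.61% lower at 8h. At 24h against 0h 4 of 7 trophectoderm, 1 of 5 fibroblast and 2 of 7 primitive endoderm markers were higher and 0 of each lower without the block, 3 of 6 neural markers were lower, and of 7 mesoderm markers 1 was higher and 2 lower. Of 10 pluripotency markers 1 was higher and 5 lower, against 10.7% and 13% of all tested genes. Cdx2, T, Mesp1 and Pdgfra passed the filter on dim probes only through groups from 4h on. Mixl1, Elf5 and Ttr, dim in every group, were left out. The shares of trophectoderm, mesoderm and primitive endoderm markers given as higher are therefore not independent of the filter. The part of these shifts in the changes of the FGF genes was not tested. In such bulk samples a change in the share of cells that express a gene and a change in RNA per cell cannot be told apart.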

How the data were processed

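RNA of 16 samples (8 groups of 2) was hybridised to Agilent mouse arrays. Per the file headers the arrays were read with Agilent Feature Extraction 11.0.1.1 with annotation on mm9. Per the file headers the deposited files of the scanner list a processed intensity for every spot, corrected by the authors' software for background, its raw median intensity and flags such as well above background. The value table deposited by the authors holds the same intensity, rounded, without scaling or log transform. The column medians of that table run from 27.3 to 44.7. Cy5 is the dye in the labels, although the green channel is what the files hold, and a description of the 4h samples gives minutes where title and time point give 4h, which was used.

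From these deposited intensities log2 values were computed and each array's 75th percentile was subtracted, leaving out control spots and 147 to 240 outlier spots an array. Spots of 1 probe were averaged. Of 55681 probes 27656 matched 1 gene of RefSeq (GRCm38.p6) by accession, 28025 none and 0 several. A gene was tested if its brightest probe was well above background on every array of at least 1 group. limma 3.58.1 (R 4.3.3) fitted a mean for each of the 8 groups to the 16 arrays together, with 8 residual degrees of freedom, eBayes and Benjamini-Hochberg adjustment over 15660 genes. The script was tested on simulated data.

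Groups share replicate numbers. The deviations of same-numbered arrays from their group means correlated at 0.328 to 0.659 over the 28 pairs of groups, so the numbers, which are also the slides, were taken to pair the arrays. The fit with the block is given where it changes a call of the 9 genes or a count given for a list of pathway genes. Counts of cell type markers are those without the block, which changed some of them. The 9 genes, gene lists, markers and the record of array identity were chosen with earlier results of these data known. Of other lists, always named were Fgf5, Fgfrl1, Spry2, Spry4, Dusp6, Etv4, Etv5, Frs2 and Grb2, and otherwise at most the 6 called genes with the largest change per list. The number of arrays limits the precision. The planned normexp alternative used the median signal, since the files give no mean signal. 1 gene of the adaptor list, and the count over that list, are not reported here.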

Additional observations from a re-analysis of the deposited data

How the results depend on the processing

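The replicate block called 2 of the 9 genes for 0h vs DMSO (0 without it), 1 for 4h vs 0h (0), 5 for 8h vs 0h (3), 4 for 24h vs 8h (2), 3 for 8h vs DMSO (1), 6 for 24h vs DMSO (3) and 7 in the test over all groups (4). With samples as attached to the scanner files 0 were called for 8h vs 0h, 24h vs 0h, 24h vs 8h, 8h vs DMSO, 24h vs DMSO and over all groups, and 341 genes in all, in place of 3718, for 24h vs 0h. A fit of only the groups compared called 0 for 8h vs 0h, 3 for 24h vs 0h, 0 for 24h vs 8h, 0 for 8h vs DMSO and 0 for 24h vs DMSO; it has fewer arrays to estimate the spread. For 24h vs 0h, 4 genes in place of 6 were called with a minimum change of 2-fold and with the mean of all probes, and 5 with normexp, median centring, quantile normalization or no filter. For 24h vs 8h, 1 gene in place of 2 was called with a minimum change of 2-fold, with normexp, with median centring, with quantile normalization, with no filter on dim probes and with the mean of all probes. For 8h vs DMSO 0 in place of 1 were called with median centring, quantile normalization and no filter, and with normexp 1, but Fgfr4 upwards in place of Fgf3 downwards. Leaving out 1 array at a time (an arm of 1 array being assumed to vary like the other groups) gave 0 to 4 genes for 8h vs 0h, 2 to 5 for 24h vs 0h, 1 to 2 for 24h vs 8h, 0 to 1 for 8h vs DMSO, 1 to 2 for 24h vs DMSO and 3 to 5 over all groups. The reversed sign was that of Fgf8 for 24h vs 8h, 0.19 with the mean of all its probes against -0.96, where the third, dim probe enters the mean. The authors' value table changed no call of the 9 genes. Of 74 calls of listed pathway genes, 0 changed sign under median centring, quantile normalization or normexp. Of the 74, 44 stayed called with median centring, 69 with quantile normalization, 69 with normexp and 16 in a fit of only the groups compared. With samples as attached 66 had a value, of which 30 changed sign and 0 were called. Median centring moved the median difference of all genes for 24h vs 0h to -0.10 from -0.01, and the total of called genes from 3718 to 2143; for 0h vs DMSO the total was 259 with it and 2344 with the block, in place of 548. The cause of these shifts was not tested. Signal over background limits Fgf3, which is near the detection limit.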
